A study of Homo sapiens with 2 samples.

Results

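The regions described here were chosen by their measured methylation level. They were autosomal 500 bp tiles whose mean DNA methylation level lay between 0.35 and 0.65 in SKNO-1 and in SKNO1-siAE and differed by less than 0.15 between the libraries. A tile was eligible when at least 10 of its CpG cytosines, called sites below, reached 5 reads in each of the libraries, and its level was the mean over these sites of methylated reads divided by all reads. Of 99847 eligible tiles, 1953 met the rule, which is 1.96%, and they held 34890 sites. These tiles are called intermediate tiles. Each library on its own had more tiles in this range, 10886 (10.9%) in SKNO-1 and 6608 (6.62%) in SKNO1-siAE. A total of 2475 tiles lay in the range in both, and 522 of them differed by 0.15 or more. The intermediate tiles were therefore 17.9% of those in the range in SKNO-1 and 29.6% of those in the range in SKNO1-siAE.

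SKNO-1 is an acute myeloid leukemia (AML) cell line with the t(8;21) translocation, which joins RUNX1 to RUNX1T1 and yields the AML1-ETO fusion. SKNO1-siAE is its derivative with a silencing construct. Its cells were infected with a lentivirus (backbone pRRLcPPT.hPGK), and the insert, siAGF1, targets the AML1-ETO transcript where the partner genes join. Both lines were grown in the same medium, and neither was treated with a demethylating drug. There was 1 MCC-Seq library per line, in which bisulfite-converted DNA was captured with probes and sequenced. The effect of silencing therefore cannot be told apart from differences between infected and parental cells, between cultures or between libraries, and no test between the lines was made. No expression was measured in these libraries, so the silencing of the fusion could not be checked.

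Methylation of the cytosine in a CpG dinucleotide is copied to the new strand after replication, and a CpG on a given DNA molecule is either methylated or not. A site read at an intermediate level therefore comes from a mixture of methylated and unmethylated molecules. At imprinted loci the copies inherited from the mother and the father differ in methylation, and at the edges of CpG islands unmethylated DNA borders on methylated DNA. A tile can also reach an intermediate mean with no intermediate site, when some of its sites are unmethylated and others methylated. Capture reads shorter than the tile do not separate the parental copies, and the deposited counts do not link sites on a molecule, so whether the copies differed was not tested.

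The sequences below show tiles at both extremes of this distinction, 300 bp of the + strand of hg19 each. The first set comes from tiles in which most sites were themselves between 0.2 and 0.8 in both libraries. Capitals mark the CpGs whose level, averaged over their measured strands, was between 0.2 and 0.8 in SKNO-1 and in SKNO1-siAE. In the promoter of ZNF331, an imprinted zinc finger gene, 31 of 34 measured CpGs were marked (chr19:54041132-54041431). Near the starts of SPATC1L 12 of 14 were marked (chr21:47604088-47604387), and in front of PCDHB13, a clustered protocadherin gene for cell adhesion, 7 of 8 were (chr5:140593186-140593485).
ZNF331: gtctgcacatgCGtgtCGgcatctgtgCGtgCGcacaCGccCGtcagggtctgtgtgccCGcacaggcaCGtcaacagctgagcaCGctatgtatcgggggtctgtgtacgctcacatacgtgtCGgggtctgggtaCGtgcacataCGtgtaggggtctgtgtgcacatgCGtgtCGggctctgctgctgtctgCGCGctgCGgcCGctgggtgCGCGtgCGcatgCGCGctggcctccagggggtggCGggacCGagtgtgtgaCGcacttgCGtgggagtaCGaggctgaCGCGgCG
SPATC1L: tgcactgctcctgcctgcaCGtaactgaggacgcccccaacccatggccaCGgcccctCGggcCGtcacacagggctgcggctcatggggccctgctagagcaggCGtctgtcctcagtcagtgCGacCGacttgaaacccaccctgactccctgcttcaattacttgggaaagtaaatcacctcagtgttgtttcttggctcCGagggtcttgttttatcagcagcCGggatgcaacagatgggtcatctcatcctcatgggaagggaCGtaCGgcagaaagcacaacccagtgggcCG
PCDHB13: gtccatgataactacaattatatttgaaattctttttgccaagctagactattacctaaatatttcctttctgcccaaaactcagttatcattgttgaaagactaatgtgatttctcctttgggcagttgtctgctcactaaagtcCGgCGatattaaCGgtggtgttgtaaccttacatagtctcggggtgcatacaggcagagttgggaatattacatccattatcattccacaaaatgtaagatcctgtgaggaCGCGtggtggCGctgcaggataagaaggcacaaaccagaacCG

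The next set comes from tiles in which nearly every site was below 0.2 or above 0.8. Capitals mark the CpGs above 0.8 in both libraries, and each stretch was placed to hold as many CpGs of either kind as possible. In the promoter of SUCLA2, which encodes a subunit of the mitochondrial succinyl-CoA ligase, 4 of 9 measured CpGs were marked, all at the right end (chr13:48575589-48575888). In the intergenic tile 207 bp past the 3′ end of GNAI2, which encodes an inhibitory G protein subunit, 5 of 8 measured CpGs were marked, all at the left end (chr3:50297092-50297391).
SUCLA2: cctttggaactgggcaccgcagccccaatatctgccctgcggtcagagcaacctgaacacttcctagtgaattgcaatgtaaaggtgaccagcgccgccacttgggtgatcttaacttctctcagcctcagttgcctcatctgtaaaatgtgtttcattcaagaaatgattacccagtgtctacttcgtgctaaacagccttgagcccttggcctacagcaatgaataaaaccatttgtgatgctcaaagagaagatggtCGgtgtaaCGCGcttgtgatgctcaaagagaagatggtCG
GNAI2: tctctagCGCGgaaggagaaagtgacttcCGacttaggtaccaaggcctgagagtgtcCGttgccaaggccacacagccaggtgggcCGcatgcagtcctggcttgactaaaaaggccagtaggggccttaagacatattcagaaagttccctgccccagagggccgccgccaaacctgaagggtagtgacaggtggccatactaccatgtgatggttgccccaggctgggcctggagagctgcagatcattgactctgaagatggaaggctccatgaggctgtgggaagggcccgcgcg

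The levels themselves were set by the rule and are given only as a description. The median level of the intermediate tiles was 0.512 in SKNO-1 and 0.539 in SKNO1-siAE, while that of all eligible tiles was 0.768 and 0.865. Among the intermediate tiles, 729 were higher in SKNO-1, 1221 were lower and 3 were equal. Just inside the lower limit lay a tile near MIR4419B at 0.35 in SKNO1-siAE, and just outside it a tile near ENSG00000288892 at 0.349984 in SKNO-1. At the upper limit the tile inside was in AMZ1, at 0.65 in SKNO-1, and the tile outside was near PRRX2, at 0.650019 in SKNO1-siAE. For the difference, the tile inside lay near ENSG00000227088 at 0.1498, and the tile outside lay near CSNK2A2 at -0.150024, SKNO-1 minus SKNO1-siAE.

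The libraries held 4628654 autosomal sites with 82286643 site reads in SKNO-1 and 4612198 sites with 81038534 site reads in SKNO1-siAE. The median depth of the sites shared by both was 16 reads in each library. Of 16 marker genes fixed to check the myeloid label, 10 had an eligible promoter tile. SPI1, the master transcription factor of myeloid cells, was at 0 in both libraries, whereas CD34, a progenitor antigen, was at 0.986 and 0.974. The 4 epithelial genes ranged from 0.602 to 0.890 in SKNO-1 and from 0.680 to 0.969 in SKNO1-siAE, and the B cell genes CD79A and CD79B were below 0.1 in both. Methylation of these promoters is a limited check, since unmethylated promoters need not be expressed. None of these marker tiles was intermediate by the rule.

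Most sites inside the intermediate tiles were not intermediate. In SKNO-1, 31.3% of the 34890 sites were low (below 0.2), 33.4% were high (above 0.8) and 35.3% were partly methylated (0.2 to 0.8). The same shares in SKNO1-siAE were 30.4%, 36.8% and 32.7%. The name half-methylated thus describes the mean of a tile and not its typical site. If every site had the level of its tile, read counting alone would have left 95.2% of the sites at 0.2 to 0.8 in SKNO-1 and 94.6% in SKNO1-siAE. This takes every read as a separate molecule, and repeated copies of a molecule among the reads would lower these shares. Sites with no methylated read made up 24.2% and 24.1%, and sites with no unmethylated read made up 22.5% and 26.8%.

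**Figure D1:**
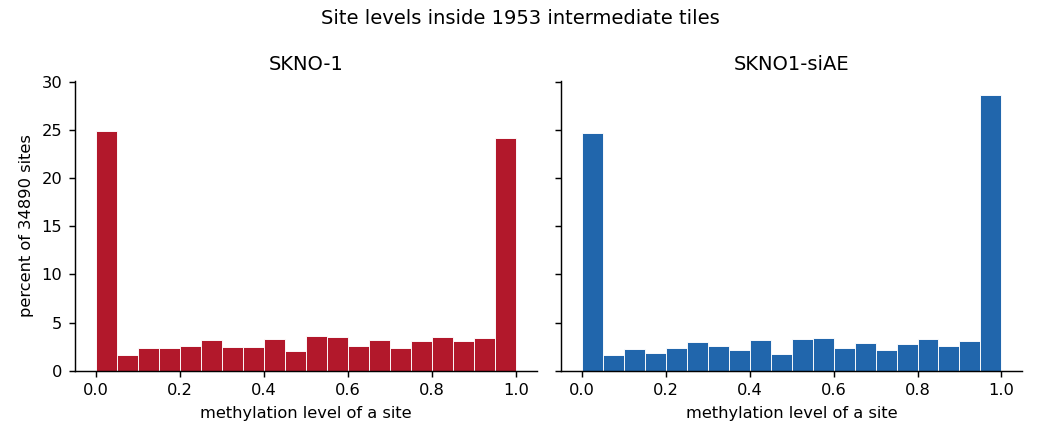
Levels of the 34890 sites inside the 1953 intermediate tiles in SKNO-1 (left) and SKNO1-siAE (right); the x axis is the methylation level in bins of 0.05 and the y axis the percent of sites. Both libraries piled up at the ends of the scale, where sites at exactly 0 made up 24.2% and 24.1%.

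The same sites tended to be low or high in both libraries. A total of 7108 sites (20.4%) were low in both, 8041 (23%) were high in both and 5606 (16.1%) were partly methylated in both. Only 1613 sites (4.62%) were low in one library and high in the other. Within a tile, Pearson's r between the site levels of the libraries had a median of 0.674, with quartiles of 0.431 and 0.840, and it was above 0.8 in 32.2% of the intermediate tiles. The median was 0.193 in the 80035 eligible tiles with a defined r, 0.385 in tiles in the range in SKNO-1 only and 0.370 in tiles in the range in SKNO1-siAE only. These values are descriptions without a test. Tiles in which all sites are near the same level have little spread to correlate, and neighboring sites share reads.

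Within a tile, the site levels had a median SD of 0.401 in SKNO-1 and 0.415 in SKNO1-siAE. The median SD that read counting would give was 0.128 and 0.132, and the observed SD was larger in 1949 and 1952 of the 1953 tiles. The counting SD also takes every read as a separate molecule and is too small where reads are copies. Even tiles were those with at least 80% of sites partly methylated in both libraries, and split tiles were those with at least 80% of sites low or high in both. There were 14 even tiles (0.717%, 95% Wilson interval 0.427% to 1.20%) and 282 split tiles (14.4%), and the remaining 1657 (84.8%) were mixed. Among all eligible tiles 24 were even (0.024%), 60070 were split (60.2%) and 39753 were mixed (39.8%). An eligible tile can be split with all its sites at the same end of the scale, which the rule for the mean does not allow in an intermediate tile. This comparison is partly built in, because a tile whose sites are nearly all partly methylated tends to have an intermediate mean. Counted in a single library, 54 intermediate tiles passed the even limit in SKNO-1 and 49 in SKNO1-siAE.

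Deeper tiles held a larger share of even ones. Of 519 intermediate tiles with a median depth of at least 20 reads in both libraries, 9 were even (1.73%), 73 were split (14.1%) and 437 were mixed (84.2%). Their median r was 0.754. The even tiles themselves had median depths of 27.5 reads in SKNO-1 and 25.5 reads in SKNO1-siAE, against 18 and 17 over all intermediate tiles. This depth split was chosen after the values were seen.

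The 14 even tiles are all named here, 10 by the number of their sites and the other 4 because the group was small. The tile with most sites was in the ZNF331 promoter, at chr19:54041001-54041500, with 72 sites. Its level was 0.529 in SKNO-1 and 0.497 in SKNO1-siAE, and 81.9% and 93.1% of its sites were partly methylated. Pooled over its reads, the methylated share was 0.580 of 1755 reads in SKNO-1 (95% Wilson interval 0.556 to 0.602) and 0.492 of 1505 reads in SKNO1-siAE (0.467 to 0.517). These intervals cover counting error only and are too narrow, since a read spans several sites and carries no molecular identifier. Many neighboring ZNF331 sites had identical levels, as sites covered by the same reads do. Their ups and downs were not shared between the libraries (r = 0.0213).

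In SPATC1L, at chr21:47604001-47604500, 35 sites averaged 0.536 and 0.473, and 28 and 29 of them were partly methylated. The ADPRHL1 promoter tile at chr13:114103501-114104000 was deeper, with medians of 45 and 73 reads, and 97.1% and 91.2% of its 34 sites were partly methylated. Its level was 0.530 in SKNO-1 and 0.572 in SKNO1-siAE. MAB21L1, a gene of eye development that lies inside an intron of NBEA, had 31 sites at chr13:36050501-36051000 with levels of 0.439 and 0.586. The r of these tiles was -0.211, -0.330 and -0.396, while other even tiles had positive values, such as 0.723 near DCLK3, 0.603 near ENSG00000232721 and 0.415 at PCDHB13.

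The even tile at PCDHB13 (chr5:140593001-140593500) had 16 sites at 0.369 and 0.469. Another at chr5:140700501-140701000 overlapped ENSG00000288095 and the promoter of TAF7, which encodes a subunit of the general transcription factor TFIID, and had 22 sites at 0.603 and 0.532. LINC01305, a long noncoding RNA gene of chromosome 2, had 19 sites, all on the + strand, at 0.473 and 0.412. All 19 of them were partly methylated in SKNO-1, from 0.35 to 0.641, whereas 16 were in SKNO1-siAE. PPAN, a ribosome biogenesis gene, had 15 sites at 0.469 and 0.504 in its promoter tile. The tile of 15 sites at chr3:36676501-36677000, at 0.635 and 0.494, overlapped an annotated pseudogene, and its nearest protein-coding, long noncoding RNA or miRNA gene was DCLK3, 76912 bp away.

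The remaining 5 even tiles lay near ENSG00000232721, CR812485.1 and NBPF15 on chromosome 1, LERFS on chromosome 9 and ENSG00000288107 on chromosome 10. Of these, 4 had at least 1 further copy in the genome, that is, an alignment over at least 80% of the tile at 95% identity or more. Copies of this kind were present for 4 of the 14 even tiles (28.6%), 81 of the 1953 intermediate tiles (4.15%) and 3.25% of the eligible tiles. Reads of similar copies can be placed at the wrong copy, and their part in these levels was not tested. The other 10 even tiles had no such copy.

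**Figure D2:**
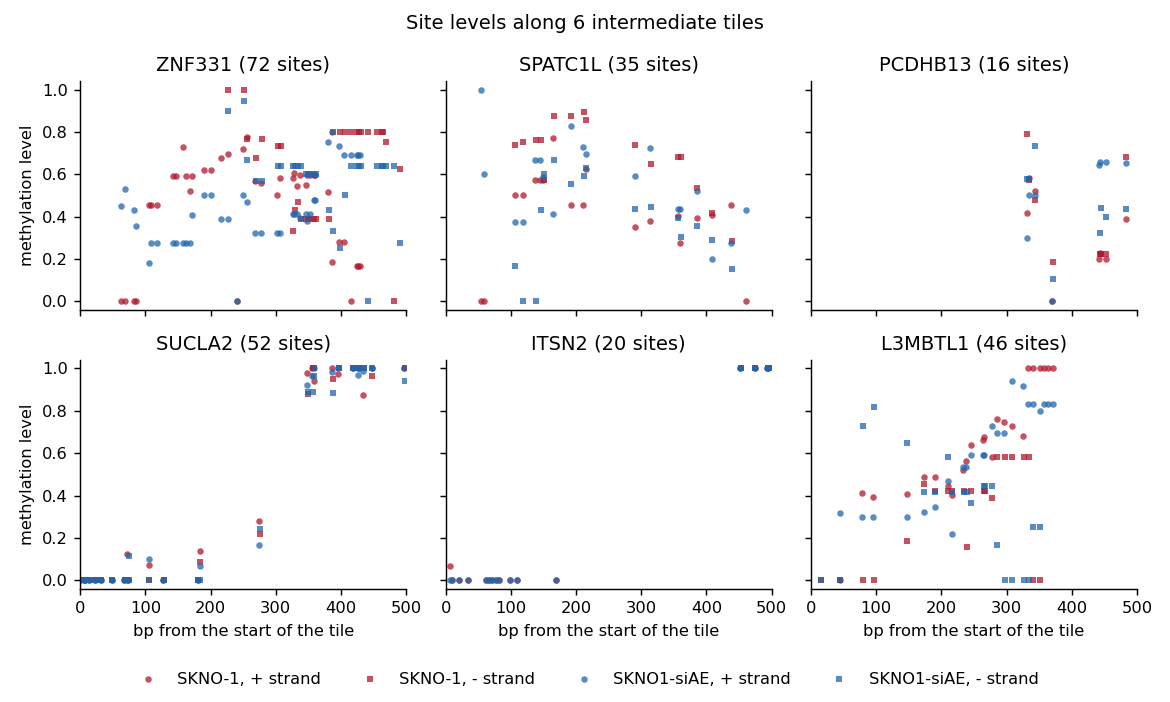
Site levels along 6 intermediate tiles; the x axis is the distance in bp from the start of the tile, the y axis the methylation level, colors the libraries and shapes the strands. The sites of ZNF331, SPATC1L and PCDHB13 spread around the middle, those of SUCLA2 and ITSN2 jumped from near 0 to near 1 within the tile, and 67.4% of the L3MBTL1 sites were partly methylated in each library.

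In the split tiles, site levels of the libraries had a median r of 0.904, against 0.629 in the mixed and -0.0949 in the even tiles. Since most sites of a split tile are near an end of the scale, r can reach high values there. By the rule for named tiles, the 5 with the highest r among the 86 split tiles with at least 20 sites were ITSN2, SUCLA2, GNAI2, MVK and MTFMT. In the SUCLA2 promoter tile (chr13:48575501-48576000, 52 sites), the 30 sites to the left of the best cut averaged 0.0306 in SKNO-1 and 0.0229 in SKNO1-siAE, and the 22 sites to its right averaged 0.980 and 0.972. The reads behind these means were 59 methylated of 959 and 54 of 1237 on the left, and 1286 of 1316 and 1803 of 1853 on the right. The cut fell at the same site in both libraries.

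In the promoter of ITSN2, which encodes an endocytic adaptor, 12 sites on the left had 1 methylated of 125 reads in SKNO-1 and 0 of 119 in SKNO1-siAE, and all reads of the 8 sites on the right were methylated (134 and 111). No measured site lay between the sets, so the position of the change is known only to that gap. GNAI2 was oriented the other way, with 147 of 150 and 110 of 113 reads methylated over its 10 left sites and 0 of 228 and 0 of 324 over its 15 right sites. MVK, which encodes mevalonate kinase, had 0 of 132 and 2 of 122 reads methylated on the left and 380 of 413 and 250 of 256 on the right. MTFMT, which encodes the mitochondrial methionyl-tRNA formyltransferase, had 1 of 230 and 4 of 379 on the left and 213 of 246 and 172 of 207 on the right. In all 5 tiles, each side was thus near an end of the scale in both libraries while the tile mean lay between 0.357 and 0.565.

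Such a change within the tile was common among the intermediate tiles. A tile was called stepped when the best single cut, with at least 3 sites on each side, separated means that differed by at least 0.5 in the same direction in both libraries. By this definition 916 of 1953 intermediate tiles were stepped (46.9%), 243 of the 282 split tiles (86.2%), 673 of the mixed tiles (40.6%) and 0 of the even tiles. Among tiles in the range in SKNO-1 only, 12.0% were stepped, and among those in SKNO1-siAE only, 13.4% were. A tile near an end of the scale in one library has less room for such a step, so these shares are not evidence of a difference. The cuts of the libraries lay within 50 bp of each other in 710 of the 916 tiles (77.5%) and at the same site in 452. The median r was 0.820 in stepped and 0.50 in the other 1037 tiles.

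Around the cut found in SKNO-1, the levels of SKNO1-siAE also differed between the sides. For the 1250 tiles stepped in SKNO-1, the mean of SKNO1-siAE sites was 0.276 in the 50 bp on the low side and 0.773 in the 50 bp on the high side. The curve of SKNO-1 itself is set by the choice of the cut. The sides also kept their levels beyond the borders of the tile, up to 500 bp from the cut. On the low side, 10357 sites outside the tiles averaged 0.231 in SKNO-1 and 0.290 in SKNO1-siAE, and on the high side, 5460 sites averaged 0.716 and 0.763. Profile and outside sites were examined after the values of the tiles were seen.

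Neighboring tiles could be compared for 216 intermediate tiles, those with an eligible tile on each side. The neighbors were high (above 0.8) on one side and low (below 0.2) on the other for 51 of them (23.6%) in SKNO-1, for 46 (21.3%) in SKNO1-siAE and for 39 (18.1%) in both. Among the 15048 eligible tiles with both neighbors, 592 (3.93%) had this arrangement in both libraries. Neighbors that were both between 0.2 and 0.8 flanked 69 intermediate tiles (31.9%) in SKNO-1 and 50 (23.1%) in SKNO1-siAE, against 10.5% and 5.32% of the eligible tiles. Some neighbors were themselves intermediate tiles, methylation is similar over short distances, and the comparison was chosen after the values were seen.

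In promoters, the low side of the step usually faced the start of the gene. Of 374 stepped tiles in promoters, that is, within 1500 bp upstream of a coding transcript start, 308 (82.4%) had their low side towards the nearest coding start, at a median distance of 363 bp from the cut. Outside promoters this held for 283 of 542 (52.2%). The orientation was not particular to the intermediate tiles, since it was found in 1143 of 1523 (75%) stepped promoter tiles that did not meet the rule. CpG density did not separate the sides, with medians of 3.35 CpGs per 100 bp on the low side and 3.34 on the high side, and 472 tiles were denser on the low and 441 on the high side. These orientations were also examined after the steps were seen.

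The bases beside the CpG went with its level inside the intermediate tiles. Of the sites low in both libraries, 25.9% had A or T on both sides of the CpG, against 19.9% of those partly methylated in both and 11.5% of those high in both. Over all eligible tiles the low and high sites hardly differed, at 12.0% and 11.8%. In 716 intermediate tiles with at least 3 sites of each kind, sites with A or T on both sides averaged 0.401 in SKNO-1 and 0.426 in SKNO1-siAE, and sites with G or C on both sides averaged 0.608 and 0.618. The former were lower in 538 tiles (75.1%) in SKNO-1 and in 500 (69.8%) in SKNO1-siAE. The median difference within a tile, A or T minus G or C, was -0.218 and -0.184.

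The difference was present in stepped and other tiles alike, with medians of -0.207 and -0.192 in 360 stepped and of -0.219 and -0.181 in 356 other intermediate tiles. It was as large in SKNO-1 in the 3103 tiles that were in the range in SKNO-1 only, at -0.210, and smaller in SKNO1-siAE in the 1387 tiles in the range in SKNO1-siAE only, at -0.105. In the 38854 eligible tiles it was -0.0142 and -0.00769, but most of these are near an end of the scale and have little room for a difference. The difference is thus not particular to tiles that were intermediate in both libraries. It was examined after the values were seen and was not tested.

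**Figure D3:**
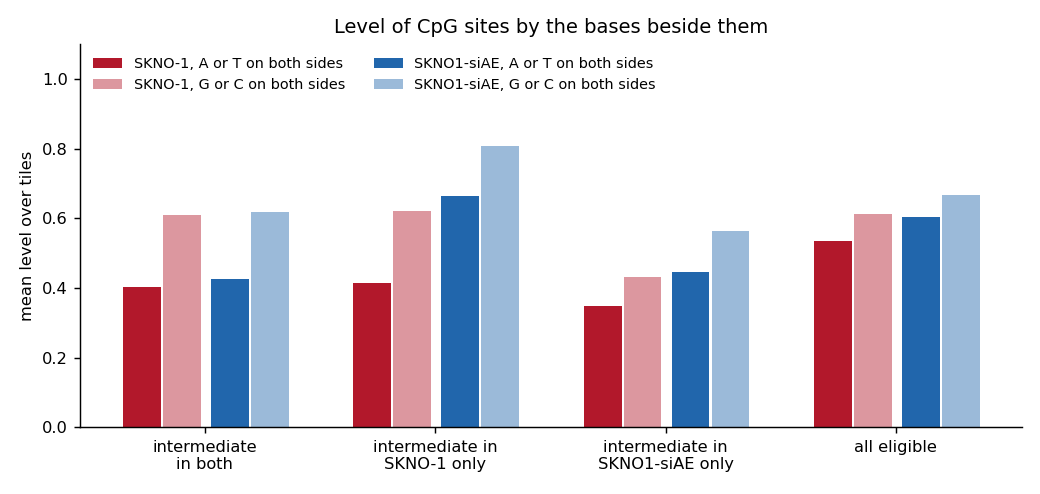
Mean level of sites with A or T (dark bars) and with G or C (pale bars) on both sides of the CpG, averaged over tiles with at least 3 sites of each kind; the y axis is the methylation level, colors the libraries, and the groups are tiles in the range in both libraries, in SKNO-1 only or in SKNO1-siAE only, and all eligible tiles. In the tiles intermediate in both, the means were 0.401 against 0.608 in SKNO-1 and 0.426 against 0.618 in SKNO1-siAE.

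The widest such difference in both libraries, among tiles without a step and with at least 5 sites of each kind, was in a promoter tile of FGFR2, which encodes a receptor of fibroblast growth factors. It was chosen for this difference. Position separated its levels too, since the best cut gave a right minus left difference of -0.599 in SKNO-1 and -0.499 in SKNO1-siAE, just short of the limit for a step. In the stretch below (chr10:123353571-123353870, + strand of hg19), capitals mark the CpGs with A or T on both sides, together with these bases. The 5 such sites of the tile averaged 0.0713 in SKNO-1, from 0 to 0.219, and 0.142 in SKNO1-siAE, from 0 to 0.370. The 6 sites with G or C on both sides averaged 0.90, from 0.484 to 1, and 0.959, from 0.840 to 1. The groups of sites did not overlap in either library.
FGFR2: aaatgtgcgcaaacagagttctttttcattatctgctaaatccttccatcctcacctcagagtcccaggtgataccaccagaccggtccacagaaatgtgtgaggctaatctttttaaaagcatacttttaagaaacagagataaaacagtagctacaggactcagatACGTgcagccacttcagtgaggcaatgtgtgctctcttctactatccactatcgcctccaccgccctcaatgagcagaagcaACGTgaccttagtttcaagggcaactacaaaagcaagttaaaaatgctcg

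Intermediate tiles were found in all kinds of location. Promoters held 666 of them (34.1%, 95% Wilson interval 32.0% to 36.2%), coding gene exons 265 (13.6%), introns 405 (20.7%), noncoding genes, pseudogenes included, 222 (11.4%) and intergenic DNA 395 (20.2%). The shares over all eligible tiles were 32.0%, 22.4%, 21.2%, 10.2% and 14.1%. Read the other way, 2.80% of the intergenic and 1.18% of the exon tiles were intermediate. Of split tiles 120 of 282 (42.6%) and of even tiles 7 of 14 were in promoters. Distance to the chromosome end differed a little, since 10.9% of the intermediate and 15.4% of the eligible tiles lay within 2 Mb of an end, a comparison made after the values were seen.

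The share of intermediate tiles was lower where a tile held more CpGs. It was 4.65% of the 8916 tiles with 0 to 9 CpGs, 2.74% with 10 to 19, 1.44% with 20 to 29 and 0.803% with 30 to 39. It was 0.731% with 40 to 49 and 0.382% of the 8125 tiles with 50 or more. The median was 15 CpGs in intermediate and 21 in eligible tiles. Tiles with fewer CpGs also gave fewer sites to the mean, with medians of 15 and 19 sites, and a mean over fewer sites varies more. The part of this in the trend was not tested. The CpG bins were set after the values were seen.

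**Figure D4:**
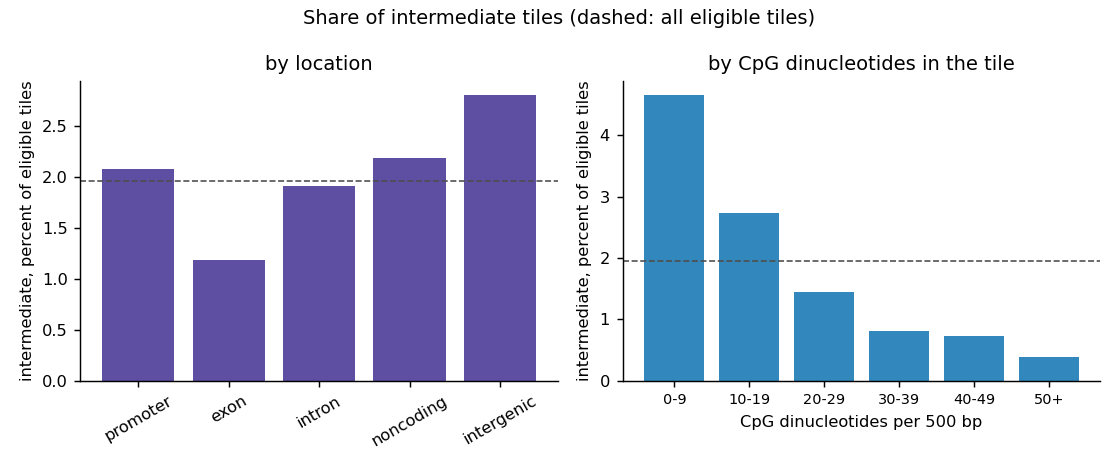
Intermediate tiles as a percent of the eligible tiles, by location (left) and by the number of CpG dinucleotides in the 500 bp tile (right); the dashed line is the share over all eligible tiles, 1.96%. The share was 4.65% in tiles with fewest CpGs and 0.382% in those with 50 or more.

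Imprinted genes were listed as loci with known differences between the parental copies. Of 62 listed symbols 58 were found in the annotation, and all 58 had an eligible tile. Of 626 eligible tiles at these genes or the 2000 bp upstream, 15 were intermediate (2.40%, against 1.96% of all eligible tiles), and within 1000 bp of a start 10 of 307 were (3.26%). The share of all eligible tiles within 1000 bp of a start is not given here. Of all eligible promoter tiles, defined by another distance, 2.08% were intermediate. The 15 tiles belonged to 10 genes. Most tiles at imprinted genes lay elsewhere on the scale, with 370 above 0.8 and 83 below 0.2 in SKNO-1, and 391 and 72 in SKNO1-siAE.

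The imprinted loci differed in the spread within their tiles. At GNAS, which encodes the stimulatory G protein subunit and has imprinted alternative promoters, 1 of 24 eligible tiles was intermediate, at chr20:57463501-57464000. It had 89 sites at 0.60 and 0.499, of which 52 were partly methylated in SKNO-1 and 73 in SKNO1-siAE. L3MBTL1, a Polycomb-related gene, had 2 of 6 eligible tiles. The larger, at chr20:42143001-42143500, had 46 sites at 0.492 and 0.469 with 31 partly methylated in each library, and the other had 13 sites at 0.402 in both. Together with ZNF331, these promoter tiles had more partly methylated sites than the typical intermediate tile, whose median share was 33.3% in SKNO-1 and 30% in SKNO1-siAE. Their strands differed in level. The + strand mean minus the - strand mean was 0.477 and 0.230 at GNAS, where 42 CpGs were measured on both strands. It was 0.329 and 0.269 in the larger L3MBTL1 tile, -0.400 and -0.179 in the other, and -0.192 and -0.145 at ZNF331. The reason was not tested.

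Other imprinted loci varied in this share. SNHG14, the long noncoding RNA of the Prader-Willi region, had 3 intermediate tiles. In that at chr15:25430501-25431000, 18 sites on the left of the cut averaged 0.730 and 0.770 and 6 on the right 0.0642 and 0.0579, with r of 0.977. In that at chr15:25327501-25328000 all 10 sites were partly methylated in SKNO-1, from 0.391 to 0.718, but only 2 were in SKNO1-siAE, where 3 were low and 5 high. The tile means of 0.543 and 0.608 did not show this difference. The tile shared by PEG10 and SGCE, a paternally expressed pair with a common promoter region, had 15 sites at 0.531 and 0.536, with 2 and 6 partly methylated and r of -0.241.

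In the imprinted cluster of chromosome 14, RTL1, a retrotransposon-derived gene, had 28 sites at 0.592 and 0.639 with r of 0.886 in its larger tile, which also counts for MEG8. MEG8, a long noncoding RNA, had 4 intermediate tiles and MEG3, another maternally expressed noncoding RNA, had 1, of 13 sites at 0.374 and 0.494 over MIR770. In the 3 tiles of MEG8 that are not shared with RTL1, 43.8% to 50% of the sites were partly methylated in SKNO-1 and 31.2% to 41.7% in SKNO1-siAE, above the medians of all intermediate tiles. IGF2, the growth factor expressed from the paternal copy, had 12 sites at 0.448 and 0.579 in a stepped promoter tile with r of 0.824. In the larger RTL1 tile 28.6% and 25% of the sites were partly methylated, below these medians. The MIR770 tile had 53.8% and 30.8%, above them, and the other RTL1 tile, of 10 sites, had 0% and 40%.

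The other gene lists were near the background of 1.96% or rested on few tiles. Intermediate tiles numbered 30 of 1818 at zinc finger genes (1.65%), 8 of 356 at the HOX clusters (2.25%), 5 of 294 at ribosomal protein genes (1.70%) and 4 of 272 at the clustered protocadherins (1.47%). Olfactory receptors, which are silent outside the olfactory epithelium, had 4 of 102 (3.92%). Of 24 transcription factors of blood cells, 23 were found and had 201 eligible tiles, of which 2 were intermediate (0.995%), at MEIS1 and RUNX1T1. HLA genes had no eligible tile.

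Runs of intermediate tiles were short. Only 216 intermediate tiles had an eligible tile directly on each side, so eligibility also limited how long a run could be. Allowing a gap of 1 tile, 1849 tiles stood alone, 49 runs had 2 tiles and 2 runs had 3. A run of 3 on chromosome 2, at chr2:90449501-90451000, held 95 sites, lay 41201 bp or more from ENSG00000281904 and averaged 0.516 in SKNO-1 and 0.485 in SKNO1-siAE. Its tiles had 67.8% and 79.7% of sites partly methylated on average. The other run of 3 lay near LINC01070 on chromosome 13, with 46 sites at 0.586 and 0.536 and 58.7% and 63.1% partly methylated. Both runs of 3 were intergenic and had no second copy by the limits used here. Those limits compare most of a tile with the rest of the genome, and repeats inside a tile were not examined. In the chromosome 2 run, the tiles with 27 and 33 sites had all of them on the + strand.

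Of the runs of 2 tiles, the 8 with most sites were named. UNC5C, a netrin receptor gene, and its antisense gene UNC5C-AS1 had 62 sites at 0.556 and 0.580 with 67.3% and 59.7% partly methylated. TBX5, a transcription factor of heart and forelimb, had 57 sites at 0.587 and 0.551 with 26.0% and 35.5%, and both of its tiles were stepped. PRKCZ, an atypical protein kinase C gene, had 65 sites at 0.567 and 0.578 with 36.8% and 28.3%. The others were at LIPG, GADD45G, SYT7, ENSG00000238277 and L3MBTL1, where the share of partly methylated sites ranged from 24.0% to 53.3% in SKNO-1 and from 24.4% to 56.8% in SKNO1-siAE.

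The strands of a CpG were compared where both were measured, at 12292 CpGs in the intermediate tiles. The median absolute difference was 0.120 in SKNO-1 and 0.111 in SKNO1-siAE, and one strand was low and the other high at 2.02% and 2.61% of these CpGs. Over the 765015 such CpGs of all eligible tiles the median was 0 in both libraries and these shares were 0.952% and 0.862%, but sites near an end of the scale vary less by read counting. A total of 55 of 1753 tiles with at least 3 sites on each strand had strand means at least 0.5 apart in both libraries. At the 139 CpGs of these tiles measured on both strands the median difference was only 0.0652 and 0.0355, and 14 of the tiles had no such CpG. The comparison at the same CpG was chosen after the values were seen. Wide strand differences were found at ZNF326, KCNIP3, COQ3 and CRIM1, and these 4 tiles were also stepped. At ZNF326, 4 sites on the left had 46 of 46 and 20 of 20 reads methylated and 7 sites on the right had 0 of 55 and 0 of 48.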

How the data were processed

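MCC-Seq was performed on 1 library each of SKNO-1 and SKNO1-siAE. The authors captured bisulfite-converted DNA with SeqCap Epi probes and, per the submitters' processing notes, used cutadapt 1.4.2, BSMAP 2.73 and hg19. The authors deposited counts of methylated and unmethylated reads for each CpG cytosine and strand, not normalized, and sites with under 5 reads were absent. The study took calls from unique sequences only, and whether duplicates were otherwise removed is not given in the sources used here. Without molecular identifiers, intervals cover counting error only, and a median of 16 reads leaves single sites uncertain.

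From these counts, levels were averaged in 500 bp tiles of the 22 autosomes with at least 10 shared sites, and all deposited positions used were CpG cytosines of the GRCh37 sequence. Tile classes, steps, strands, location, copies and gene lists were computed as defined in the report. Gene models were those of GENCODE release 44, lifted to GRCh37, tiles were named by the nearest protein-coding, long noncoding RNA or miRNA gene, and second copies came from minimap2 2.31. Members and lists were chosen with earlier results of these data known. The tiles named were those at imprinted loci, the 10 longest runs, the 10 even tiles with most sites, the 5 split tiles with at least 20 sites and the highest r, the 5 widest strand differences and the tiles at each limit. Under this rule, 1 item is not reported here. The other even tiles and the FGFR2 tile were chosen after their values were seen. With 1 library per cell line, no test was made. The rule was tested on simulated data. Alternatives were read and site minimums, pooled reads, merged strands, own sites, other borders, lengths and limits. Python 3.11.15, numpy 2.4.6, pandas 2.3.3, scipy 1.17.1, pysam 0.24.0, samtools 1.23.1 and matplotlib 3.10.9 were used.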

Additional observations from a re-analysis of the deposited data

How the results depend on the processing

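Of 40 values under 10 alternatives, 20 moved. Only the correlation has a direction that could reverse, and it reversed under 0 of the alternatives. The 1953 intermediate tiles became 995 with at least 10 reads per site, 4542 with at least 5 sites, 578 with at least 20 sites, 1216 with merged strands and 1007 at levels of 0.40 to 0.60, which were 1.01% to 2.74% of the eligible tiles over all alternatives. The share of even tiles, 0.717%, became 1.81% with 10 reads, 1.21% with 20 sites, 1.97% with merged strands, 0.398% with each library's own sites and 0.168% in tiles of 1000 bp. The promoter share, 34.1%, became 39.1% with 10 reads, 24.1% with 5 sites, 38.9% with 20 sites and 41.1% in tiles of 1000 bp. The median correlation between libraries, 0.674 (95% order-statistic interval over tiles 0.658 to 0.692), became 0.733 with 10 reads, 0.722 with 5 sites, 0.718 with merged strands, 0.638 with own sites, 0.731 in tiles of 1000 bp and 0.694 at 0.40 to 0.60. The other 20 values, among them those with pooled reads, shifted borders and a difference under 0.10, moved by less than their limit. That limit was a factor of 1.5 for the number of tiles and the 95% interval of the main value for the shares and the correlation. These intervals take tiles as independent and do not cover variation between libraries. Split tiles numbered 558 of 2383 in tiles of 1000 bp, against 282 of 1953, and the stepped share, 46.9%, ran from 32.5% with 5 sites to 55.4% in tiles of 1000 bp. Pooled reads and the other limits of level and difference used the same 99847 eligible tiles, and the rest changed the tiles tested by construction. Further causes were not tested. No paired analysis was possible because there was 1 library per cell line, and no library was left out for the same reason. The median depth of 16 reads limits single sites. The share of even tiles differed with the read minimum, which also changed the tiles tested, and the class of the same tile was not followed. Counts do not link sites on a molecule.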
